A study of Mus musculus with 18 samples.

Results

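MHC class I antigen presentation was followed through 10 genes in the ventral and lateral prostate of TRAMP mice, namely H2-K1, H2-D1, B2m, Tap1, Tap2, Tapbp, Psmb8, Psmb9, Psmb10 and Nlrc5. They were chosen by symbol, as known components of the pathway, from the 55469 gene IDs of the deposited tables, and each matched 1 ID. Earlier results of these data were known when the genes were chosen. The RNA-seq libraries came from 18 male mice, 3 for each of 3 lines at 10 and at 30 weeks of age, strain-labelled C56NL/6N. All of the mice, controls included, were heterozygous for TRAMP, a transgene that expresses the SV40 T antigens from the probasin promoter in prostatic epithelium and so drives prostate tumours. WT-TRAMP mice carried the transgene with normal Elac2, which encodes the nuclease that removes the 3′ trailer from precursor tRNAs. KO-TRAMP mice lacked exon 8 of Elac2 wherever the prostate-epithelial Pb-Cre was active, so that stroma, vessels and leukocytes kept the gene. A537T-TRAMP mice were homozygous throughout the body for Elac2 encoding an alanine-to-threonine substitution, introduced by CRISPR-Cas9. Each line was compared with its WT-TRAMP littermate-matched controls of the same age, which asks whether either form of Elac2 disruption was accompanied by a different level of the pathway in the TRAMP prostate.

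MHC class I molecules display peptides from inside the cell to CD8 T cells. The immunoproteasome, which carries the catalytic subunits Psmb8, Psmb9 and Psmb10 in place of the constitutive Psmb5, Psmb6 and Psmb7, cuts proteins into peptides, the Tap1-Tap2 transporter pumps them into the endoplasmic reticulum, and tapasin (Tapbp) holds an empty class I molecule beside the transporter until a peptide fits. The class I molecule itself is a heavy chain (H2-K1 or H2-D1) bound to the light chain beta-2-microglobulin (B2m). Interferon induces the genes together, and Nlrc5 is the transactivator of class I genes, acting through the X and Y boxes of their promoters. Loss of the pathway is a known way in which tumours become less visible to T cells.

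On GRCm38, 7 of the genes lay on chromosome 17 within or beside the major histocompatibility complex: Tapbp (33915899 to 33929292), H2-K1 (33996017 to 34000347, minus strand), Psmb9 (34181987 to 34187764, minus strand), Tap1 (34187553 to 34197225), Psmb8 (34197721 to 34201454), Tap2 (34203527 to 34216321) and H2-D1 (35262730 to 35267499). B2m lay on chromosome 2 (122147686 to 122153083), and Nlrc5 (94434356 to 94527272) and Psmb10 (105935735 to 105938444, minus strand) on chromosome 8. RefSeq promoter windows of GRCm38.p6, from 250 bases before to 50 bases after the transcription start, were matched for 8 of the 10 genes, and none was matched for Tap2 or Nlrc5. The windows of H2-K1 (chr17:34000298-34000597, minus strand), H2-D1 (chr17:35262844-35263143, plus strand) and B2m (chr2:122147437-122147736, plus strand) are shown because the genes of both heavy chains and of the light chain shared an arrangement there, and that of Tap1 (chr17:34187306-34187605, plus strand) because it lacked it. Capitals mark TGACG or its complement CGTCA, the X2 half-site, and CCAAT or its complement ATTGG, the Y box, 5′ to 3′ along the strand of the gene.
H2-K1: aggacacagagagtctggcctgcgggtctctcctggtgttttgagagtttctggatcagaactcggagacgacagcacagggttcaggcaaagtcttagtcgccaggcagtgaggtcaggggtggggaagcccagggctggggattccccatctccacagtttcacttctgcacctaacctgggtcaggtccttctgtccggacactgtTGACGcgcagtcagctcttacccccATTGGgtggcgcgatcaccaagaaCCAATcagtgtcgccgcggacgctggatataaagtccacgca
H2-D1: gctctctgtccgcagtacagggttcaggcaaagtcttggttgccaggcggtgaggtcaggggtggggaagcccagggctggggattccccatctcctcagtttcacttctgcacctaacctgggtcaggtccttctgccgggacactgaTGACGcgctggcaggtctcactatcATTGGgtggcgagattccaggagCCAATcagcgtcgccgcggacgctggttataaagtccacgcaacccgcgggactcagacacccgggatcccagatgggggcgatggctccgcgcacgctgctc
B2m: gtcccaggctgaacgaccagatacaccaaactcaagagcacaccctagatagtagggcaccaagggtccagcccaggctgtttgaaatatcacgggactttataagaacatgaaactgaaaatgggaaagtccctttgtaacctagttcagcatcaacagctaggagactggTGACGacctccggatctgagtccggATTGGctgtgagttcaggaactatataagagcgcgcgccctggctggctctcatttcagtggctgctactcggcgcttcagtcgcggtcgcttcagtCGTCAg
Tap1: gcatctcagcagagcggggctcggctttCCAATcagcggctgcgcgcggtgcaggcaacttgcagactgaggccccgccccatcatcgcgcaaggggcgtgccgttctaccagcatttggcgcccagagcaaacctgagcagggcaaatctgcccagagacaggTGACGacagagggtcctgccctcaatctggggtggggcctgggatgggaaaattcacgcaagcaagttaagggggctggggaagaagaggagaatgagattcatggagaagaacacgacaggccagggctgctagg
In H2-K1, H2-D1 and B2m, TGACG was followed by ATTGG with 20 bases between them. This spacing was noticed on looking at these windows, so its frequency is a description: 31 of 32851 RefSeq promoter windows (0.0944%), of 27 gene symbols, held it on either strand. Searched on both strands, TGACG alone was present in 5 of the 8 windows (20.8% of all windows) and CCAAT alone in 6 (37.4% of all windows). The core of the interferon-stimulated response element, GAAA and GAAA with 2 bases between them, was present only in B2m among the 8 (3.44% of all windows), and the NF-kappaB site, searched by name, in B2m, H2-K1 and H2-D1 (4.51%). Tap1 and Psmb9 are transcribed away from each other, and 275 bases of their windows were the same stretch of DNA. A match of letters is no evidence of binding, and a missing match speaks only for these exact letters in these 300 bases. Forms of the interferon element that differ from these letters, in H2-K1, H2-D1 or any other window, were not searched for.

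The libraries held 9380174 to 14830104 reads, as recovered from the normalised counts. Elac2 itself did not check the labels, since its normalised counts overlapped between each line and its controls (log2 fold changes of -0.22 and -0.19 in KO-TRAMP at 10 and 30 weeks, and -0.09 and 0.05 in A537T-TRAMP), and removal of 1 exon in 1 cell type need not lower the reads of a gene in whole tissue. The 9 luminal epithelial markers had reads in all 18 libraries, but their presence does not show how much of a library was prostate. Some libraries stood apart by their markers. Libraries are named here by the numbers in the table headers. Seminal vesicle secretory genes took 9.04% of the reads in A537T-TRAMP library 5 at 10 weeks and 1.63% to 5.45% in libraries 9, 10, 12, 13 and 15, and 6 neuroendocrine markers summed to 1300 and 808 rpm (reads of a gene per 1000000 reads of its library) in KO-TRAMP libraries 17 and 18 at 30 weeks. In whole tissue, fewer cells of a type and less RNA per cell cannot be told apart. The lines are tested against controls of the same table, because the counts of the WT-TRAMP libraries differed between the tables that hold them. Levels set side by side over all 18 libraries come from separately processed tables, with WT-TRAMP taken from the KO-TRAMP tables, and are a description.

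All 10 genes were well above the limit of detection in all 18 libraries, from 98 reads for Psmb9 in its lowest library to 27975 for B2m in its highest. In rpm for each kilobase of exon, averaged over the 18 libraries, the light chain B2m was the most abundant (1648), followed by the heavy chains H2-K1 (437) and H2-D1 (367). Tapbp was at 53.3 on this scale, and the remaining genes were lower and close to each other: Psmb8 17.2, Tap1 14.2, Tap2 12.9, Psmb10 11.9, Psmb9 8.61 and Nlrc5 7.33. Exon length was that of all annotated exons of a gene merged, from 860 bases for B2m to 3660 for Psmb9 and 8493 for Nlrc5. The order and the gaps between genes therefore depend on the annotation. The split of reads between the heavy chains is uncertain, since 11.1% of the 31-base stretches of H2-K1 transcripts recurred in H2-D1 and 22.8% recurred in some other gene, with 13.8% and 26.7% for H2-D1, whereas the share was at most 4.62% for the other 8 genes.

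Across libraries, in rpm, the highest value exceeded the lowest by 2.54-fold for Psmb10 and by up to 5.49-fold for Nlrc5, with 4.60-fold for H2-K1 and 2.77-fold for B2m. Library 5, an A537T-TRAMP mouse of 10 weeks, was the lowest of the 18 for 8 of the 10 genes. Library 17, a KO-TRAMP mouse of 30 weeks, was the lowest for the other 2, B2m and Tapbp. By group mean, A537T-TRAMP at 10 weeks ranked lowest of the 6 groups for 7 genes and KO-TRAMP at 30 weeks for 3 (B2m, Tapbp and Psmb10). Neighbouring groups in these orders differed by less than the larger of their SDs in all but 3 of 50 steps. The 3 were B2m between WT-TRAMP at 30 weeks and KO-TRAMP at 10 weeks, Psmb10 between WT-TRAMP at 30 and at 10 weeks, and Nlrc5 between WT-TRAMP and A537T-TRAMP at 30 weeks. For Nlrc5 the groups nonetheless overlapped within their own table.

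**Figure D1:**
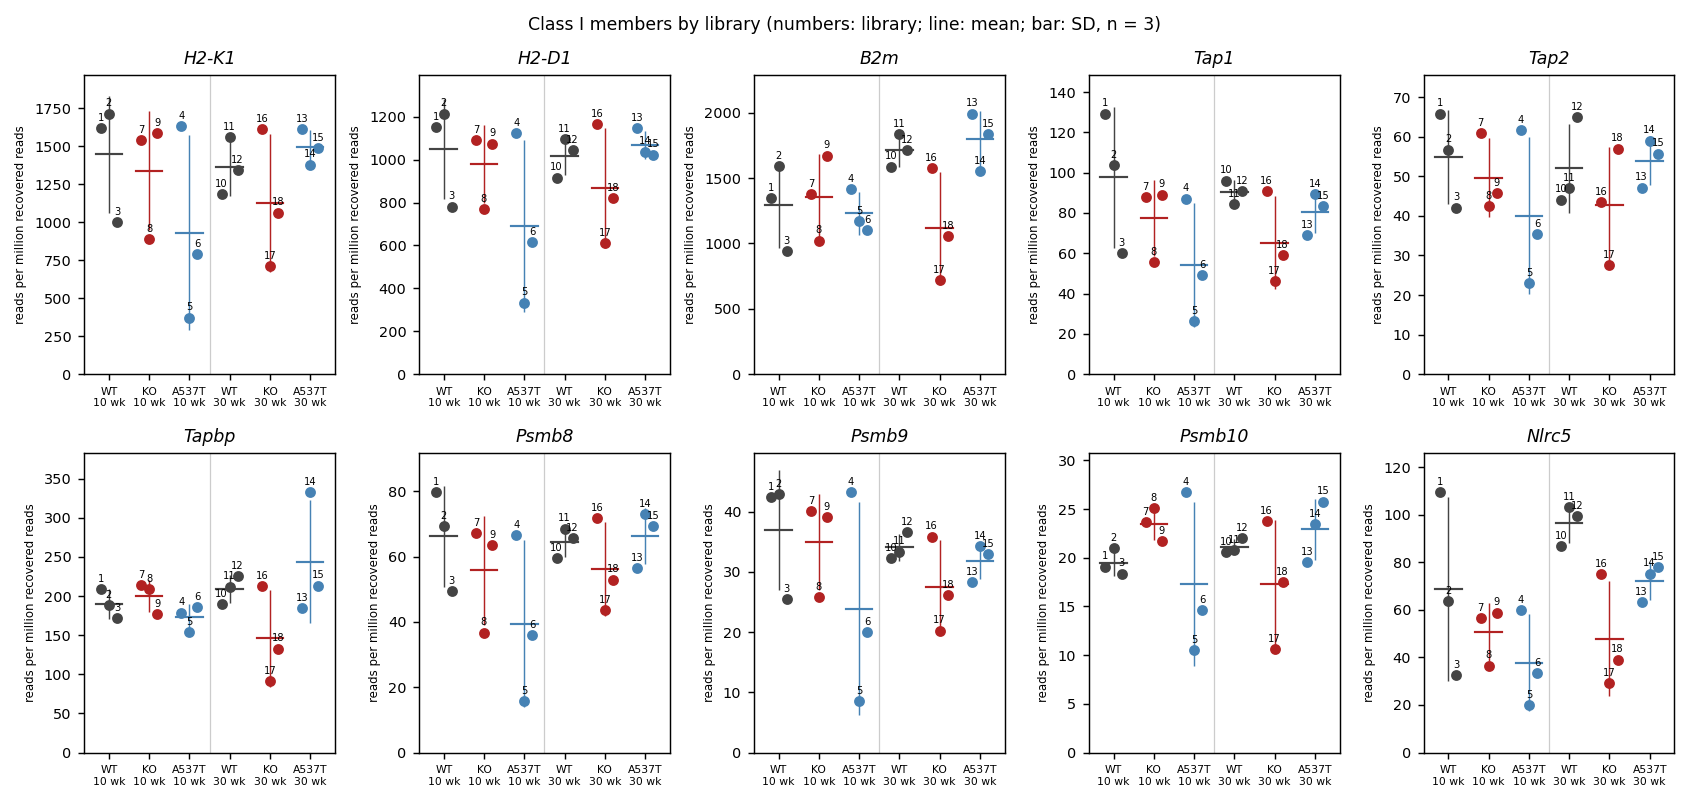
Level of each of the 10 genes in each of the 18 libraries, in rpm on a linear axis, with libraries grouped by line and age (1 point per mouse, horizontal line at the group mean, vertical bar for the SD). Library 5 is lowest for 8 genes and library 17 for B2m and Tapbp.

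At 30 weeks, all 10 genes had a lower mean in KO-TRAMP than in WT-TRAMP (median log2 fold change -0.42, against 0.01 over all genes), but none passed the test. Genes called at an adjusted p under 0.05 by limma were 0 of the 10, beside 0.213% of the 16900 genes tested. DESeq2 and edgeR on the recovered reads called none of the 10 either, beside 4.77% and 0.0888% of all genes. At an unadjusted p under 0.05, 2 of the 10 were lower, and 5.84% of all genes were. A log2 fold change below 0 was found in 49.1% of all genes.

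The transactivator Nlrc5 had the largest difference of the 10. Its normalised counts were 991, 1211 and 1154 in WT-TRAMP and 869, 316 and 425 in KO-TRAMP libraries 16, 17 and 18. The groups did not overlap, as in 9.48% of all genes in this direction, and library 16 lay nearest the controls. The log2 fold change was -1.19 (95% interval -2.08 to -0.30, adjusted p = 0.330 by limma), and the exact permutation test, two-sided, gave p = 0.1, the smallest that 3 against 3 allows.

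Of the chains of the class I molecule, B2m stood at 18113, 21536 and 19893 normalised counts in WT-TRAMP and at 18247, 7773 and 11467 in KO-TRAMP, a log2 fold change of -0.75 (95% interval -1.49 to -0.0089, adjusted p = 0.368 by limma). Library 16 was within the WT-TRAMP range and libraries 17 and 18 below it. The heavy chain H2-K1 had 13523, 18324 and 15591 in WT-TRAMP and 18648, 7671 and 11572 in KO-TRAMP, so library 16 was above all controls and libraries 17 and 18 below them. H2-D1 had the same order, with 10456, 12866 and 12109 against 13477, 6620 and 8923. Their log2 fold changes, -0.41 ± 0.33 and -0.34 ± 0.26 (SE, n = 3 per group), were near the SE in size.

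In the transport and loading step, Tap1, a subunit of the peptide transporter, had 1097, 990 and 1056 normalised counts in WT-TRAMP and 1048, 499 and 642 in KO-TRAMP (log2 fold change -0.59 ± 0.27 SE). Tapbp, encoding tapasin, had 2169, 2490 and 2622 against 2462, 991 and 1445 (-0.67 ± 0.32). Both put library 16 with the controls and libraries 17 and 18 below all of them. Tap2, which encodes the partner of Tap1 in the transporter, was less separated, at 504, 551 and 753 against 503, 299 and 620.

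Among the immunoproteasome subunits, Psmb10 had 235, 244 and 255 normalised counts in WT-TRAMP, with an SD of 10.2, and 275, 115 and 190 in KO-TRAMP, with an SD of 79.8. Psmb8 had 678, 805 and 761 against 830, 472 and 576, and Psmb9 had 368, 392 and 425 against 415, 219 and 284. Each of the 3 catalytic subunits thus had library 16 within or above the WT-TRAMP range and libraries 17 and 18 below it. The log2 fold changes lay between -0.42 and -0.29.

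Library 16 decided the calls. Without it, with 2 KO-TRAMP libraries left, 5 genes passed the threshold as lower (Nlrc5 -1.60, B2m -1.07, Tapbp -1.02, Tap1 -0.88 and Psmb9 -0.66, adjusted p of 0.00899 to 0.0456 by limma), and the median fell to -0.73; 6.75% of all genes were then called lower and 17.8% in either direction. Without library 17 none was called (0.0769% of all genes) and the median was -0.15. The neuroendocrine markers moved with the same split, summing to 1300 and 808 rpm in libraries 17 and 18, to 0.356 in library 16 and to 0.327 to 84.9 in WT-TRAMP at 30 weeks, all 6 of them measured above 0 in libraries 17 and 18 and 3 at 0 in library 16. Their part in the result was not tested. The T and NK cell markers summed to 10.2 to 13.7 rpm in KO-TRAMP and 13.2 to 17.4 in WT-TRAMP.

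At 10 weeks, KO-TRAMP and WT-TRAMP overlapped for each of the 10 genes. Called genes were 0 of the 10 by limma, beside 0.0129% of 15451 genes, none had an unadjusted p under 0.05 (6.64% of all genes did), and the log2 fold changes ran from -0.36 (Nlrc5) to 0.21 (Psmb10), with 7 below 0, as were 51.1% of all genes. B2m was at 15414, 18683 and 11049 normalised counts in WT-TRAMP and 15147, 11622 and 18486 in KO-TRAMP, a log2 fold change of 0.01 with a 95% interval of -0.51 to 0.53. Nlrc5 spread widely among the controls, at 1255, 746 and 383, and the KO-TRAMP values of 621, 416 and 651 lay inside that range. The interval of Nlrc5 (-1.26 to 0.54) included its value at 30 weeks, whereas those of B2m and Tapbp (-0.25 to 0.28) ended short of theirs. The 30-week values had wide intervals of their own (-1.49 to -0.0089 for B2m and -1.45 to 0.12 for Tapbp). The difference between ages is therefore read from the interaction terms below.

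The KO-TRAMP effect at 30 weeks minus that at 10 weeks was most negative for Nlrc5 (-0.82 on the log2 scale, 95% interval -2.15 to 0.50), B2m (-0.76, -1.67 to 0.15), Tapbp (-0.68, -1.47 to 0.11) and Psmb10 (-0.63, -1.40 to 0.13). None of the 10 interaction terms was called by limma (0% of 16431 genes), with 13.1% of all genes and 0 of the 10 at an unadjusted p under 0.05. Without library 16, Tapbp (-1.03) and Psmb10 (-0.93) were called (adjusted p of 0.0196 and 0.0437 by limma), as were 11.7% of all genes.

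In A537T-TRAMP at 10 weeks, 8 of the 10 genes had a lower mean than WT-TRAMP, and the median log2 fold change was -0.70, against -0.0078 over all genes, of which 50.9% were lower. No gene of the 10 was called by limma, beside 0.00648% of 15438 genes, and none had an unadjusted p under 0.05, as 7.89% of all genes did. The 8 were both heavy chains, both transporter subunits, the 3 immunoproteasome subunits and Nlrc5, at 55.9% to 87.3% of the WT-TRAMP mean. B2m and Tapbp, the remaining 2, were at 104% of it.

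H2-K1 had 16834, 18252 and 10642 normalised counts in WT-TRAMP and 16822, 4765 and 8563 in A537T-TRAMP libraries 4, 5 and 6. Library 4 was within the WT-TRAMP range and libraries 5 and 6 below it, and the log2 fold change was -0.75 (95% interval -1.80 to 0.30, adjusted p = 0.610 by limma). B2m, the partner of H2-K1 on the cell surface, had 13668, 16590 and 9757 against 14606, 14925 and 11959, so that no A537T-TRAMP library was below the lowest control. Tapbp likewise stood at 2018, 1865 and 1692 against 1844, 1964 and 2011.

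Library 5 was also the lowest for the genes of peptide supply. Psmb8 had 823, 733 and 522 normalised counts in WT-TRAMP and 686, 202 and 389 in A537T-TRAMP (log2 fold change -0.85 ± 0.42 SE, n = 3 per group), and Psmb9 had 423, 440 and 260 against 446, 108 and 217. Tap1 had 1254, 1031 and 596 against 898, 338 and 534. In all 3 genes, library 4 lay in or just above the WT-TRAMP range and libraries 5 and 6 below it. For Nlrc5, with 1165, 693 and 355 against 619, 255 and 362, library 6 was also inside the range of the controls.

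Without library 4, the median log2 fold change of the 10 genes was -1.07, and 7 had an unadjusted p under 0.05 (22.2% of all genes) though none was called, beside 0.246% of all genes. Without library 5 the median was -0.27. Seminal vesicle secretory genes summed to 90368 rpm in library 5, 11822 in library 6, 487 in library 4 and 1.83 to 4.5 in WT-TRAMP at 10 weeks. The smooth muscle markers summed to 2022, 1334 and 935 rpm in libraries 5, 6 and 4 and to 377 to 619 in WT-TRAMP, and the luminal markers to 2000, 2826 and 3545 against 3154 to 3547. The part of other tissue in these values was not tested.

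**Figure D2:**
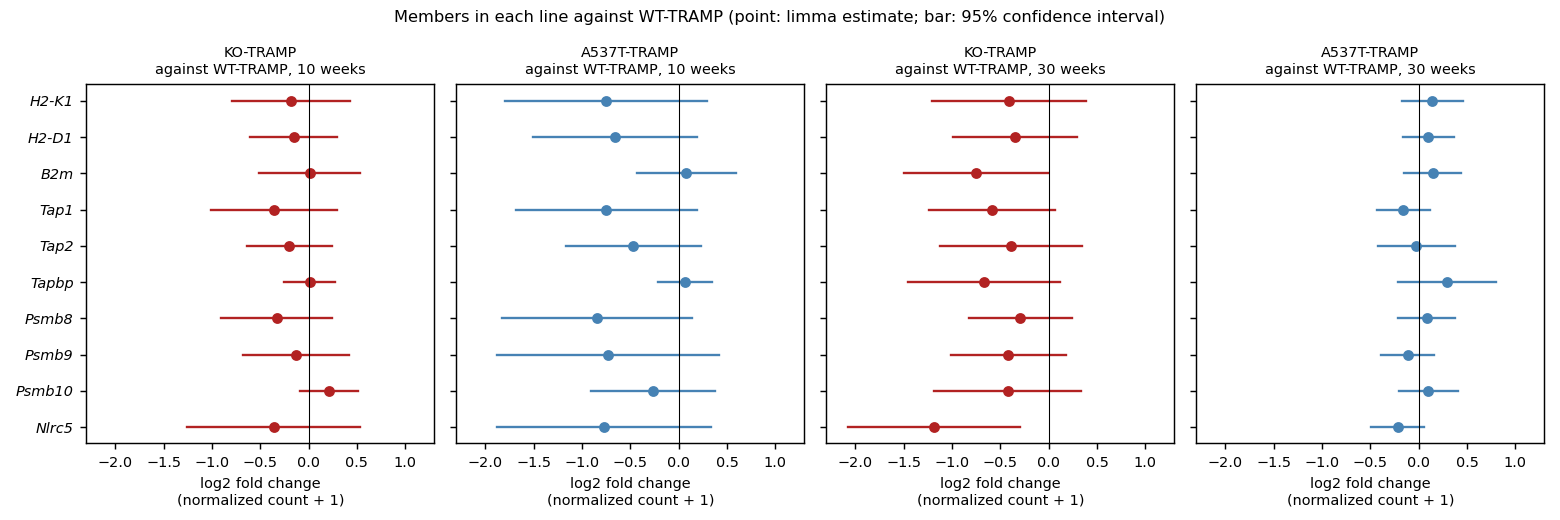
Log2 fold change of each gene in each line against WT-TRAMP at 10 and 30 weeks, with 95% intervals (limma, n = 3 per group). All 10 points lie below 0 for KO-TRAMP at 30 weeks, and only the intervals of Nlrc5 and B2m there leave out 0; no adjusted p was under 0.05.

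At 30 weeks, A537T-TRAMP values lay close to WT-TRAMP. None of the 10 genes was called by limma (0% of 16261 genes, with 7.21% of all genes and 0 of the 10 at an unadjusted p under 0.05), 6 were higher and 4 lower in mean, as were 50% of all genes, and the median log2 fold change was 0.09. H2-K1 had 13234, 17795 and 15147 normalised counts in WT-TRAMP and 18554, 15782 and 16375 in A537T-TRAMP, and B2m had 16822, 19847 and 18339 against 22920, 17800 and 20246. Their intervals, -0.17 to 0.46 and -0.15 to 0.44, bound any loss in this line and age more tightly than at 10 weeks. Tapbp had the largest difference upwards (0.29 ± 0.22 SE), which came from library 14 alone (3811, against 2125 and 2351 in the other A537T-TRAMP libraries and 1962 to 2354 in WT-TRAMP). Nlrc5 had the largest downwards, with 845, 1024 and 976 against 727, 861 and 860 (-0.22, 95% interval -0.49 to 0.06). The effect at 30 minus that at 10 weeks was positive for all 10 genes (median 0.57), and none was called by limma (0% of 15941 genes, 6.36% of all and 0 of the 10 at an unadjusted p under 0.05). In this comparison and those at 10 weeks, edgeR called none of the 10 and 0% of all genes, and DESeq2 called none of the 10, beside 1.04% of all genes here and, at 10 weeks, 0.597% (KO-TRAMP) and 0.964% (A537T-TRAMP).

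The ratio of light to heavy chain within a library was computed after the values had been seen and is given with no test. At 30 weeks, B2m exceeded H2-K1 by 0.42, 0.23 and 0.35 on the log2 scale of normalised counts in WT-TRAMP, and was level with it in KO-TRAMP, at -0.03, 0.02 and -0.01. The groups did not overlap. Library 16 had H2-K1 above all controls and B2m within their range, above only the lowest control. Its ratio was close to those of libraries 17 and 18. In A537T-TRAMP at 30 weeks the ratio was 0.30, 0.17 and 0.31, with controls at 0.35, 0.16 and 0.28 in that table. At 10 weeks, library 5 had 3.13 times as many normalised counts of B2m as of H2-K1 and library 6 had 1.40 times, against 0.868 in library 4 and 0.812 to 0.917 in WT-TRAMP. H2-K1 to H2-D1, by contrast, differed from WT-TRAMP by at most 0.09 in mean in any comparison. B2m to H2-D1 and Tapbp to Tap1 were also computed after the values had been seen. B2m to H2-D1 did not overlap in KO-TRAMP at 30 weeks (mean difference -0.41), nor did Tapbp to Tap1 in A537T-TRAMP at 30 weeks (0.45). Every other comparison of these added ratios overlapped. How often other pairs of genes separate in this way was not computed.

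The ratio of each immunoproteasome subunit to the constitutive subunit whose place it takes was tested in all 4 comparisons, 12 tests in all. In KO-TRAMP at 30 weeks, Psmb10 to Psmb7 had log2 values of -1.49, -3.38 and -2.41 for libraries 16, 17 and 18 and of -1.49, -1.44 and -1.43 for WT-TRAMP. Library 16 was thus level with the controls. The mean differences in that comparison were -0.97 for Psmb10 to Psmb7, -0.75 for Psmb9 to Psmb6 and -0.72 for Psmb8 to Psmb5, with exact permutation p of 0.2, 0.3 and 0.2, two-sided. No test of the 12 reached the smallest p that 3 against 3 allows, 0.1, and the adjusted p were 0.45 to 0.90. In A537T-TRAMP at 10 weeks Psmb8 to Psmb5 and Psmb9 to Psmb6 differed by -0.80 and -0.63, and Psmb10 to Psmb7 by 0.05.

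**Figure D3:**
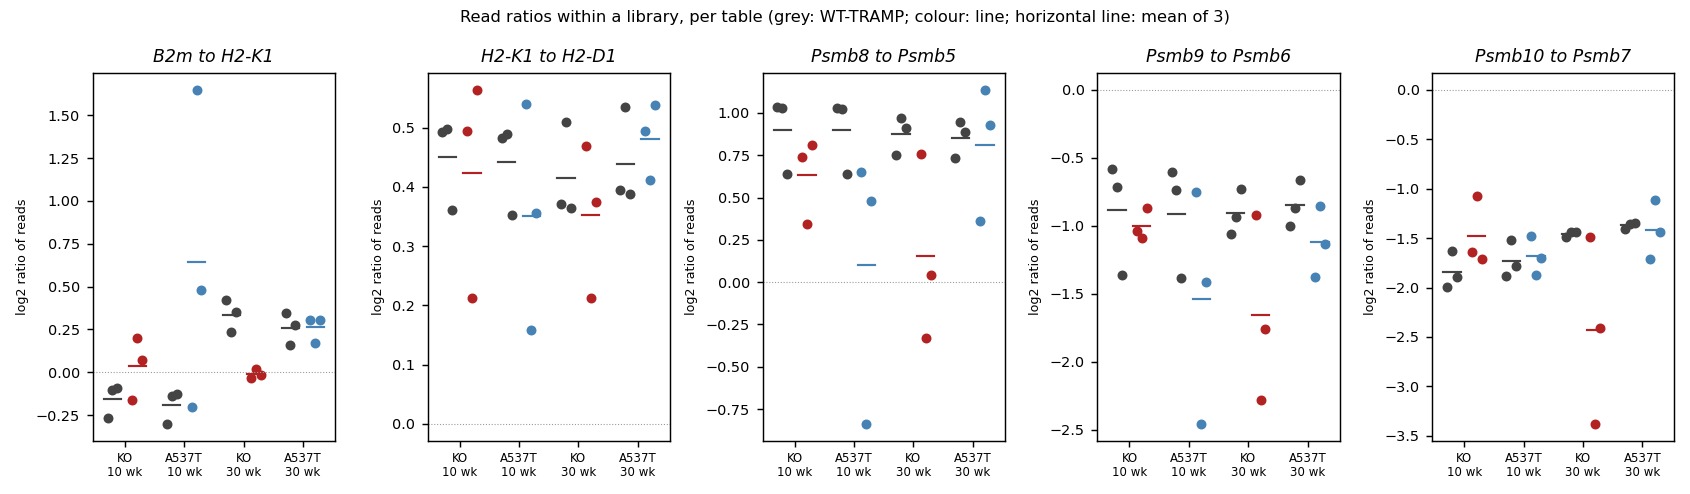
Log2 ratios of normalised counts within each library, for immunoproteasome against constitutive subunits and for B2m against H2-K1, by line and age (1 point per mouse). Psmb10 to Psmb7 stands at -3.38 in library 17, and B2m to H2-K1 at 1.65 in library 5, beyond the range of all WT-TRAMP libraries in each case.

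Other genes of the pathway and its control were taken from lists chosen by function, with earlier results of these data known. No interferon-stimulated gene, class I regulator or non-classical heavy chain passed the test by limma in any comparison. In KO-TRAMP at 30 weeks, all 34 measured interferon-stimulated genes had a log2 fold change below 0 (median -0.86), 23 at an unadjusted p under 0.05, where 5.84% of all genes were lower by that rule, and 33 or 34 stayed below 0 whichever library was left out. They included the antiviral effectors Mx1 (-1.28), Ifit3 (-1.38) and Rsad2 (-0.63) and the GTPase Gbp6 (-1.35), with unadjusted p of 0.00603 to 0.00934. Stat2, which carries type I interferon signals to the nucleus, was at 1008 ± 587 against 1809 ± 212 normalised counts (SD, n = 3 per group), with an adjusted p of 0.368 by limma. Without library 16, 22 of the 34 interferon-stimulated genes were called lower (6.75% of all genes), and DESeq2 called 5 on all libraries (4.77% of all genes in either direction) while edgeR called none (0.0888% in either direction). Of the non-classical class I heavy chains, 11 of 12 were below 0 (median -0.54), 4 of them at an unadjusted p under 0.05, H2-T24 (-1.71), H2-Q10 (-1.02), H2-T23 (-0.82) and H2-T22 (-0.62).

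Some other lists lay the other way in KO-TRAMP at 30 weeks. All 14 constitutive proteasome core subunits had a log2 fold change above 0 (median 0.34), 8 at an unadjusted p under 0.05, beside 7.7% of all genes in that direction. Psma7 (0.40), Psmb5 (0.43) and Psmb7 (0.54) were among them, as was Pomp outside that list, the chaperone of proteasome assembly (0.56, adjusted p = 0.153 by limma). Of 6 class II genes, whose products present peptides to CD4 T cells, 4 were higher at an unadjusted p under 0.05, H2-Ab1 (0.61), H2-Aa (0.61), H2-Eb1 (0.54) and Cd74 (0.44). Macrophage markers, which mark cells that make class II, were also higher, 2 of 8 called, beside 0.213% of all genes, summing to 349 to 390 rpm against 130 to 157, and 2 of 4 fibroblast markers were called (1197 to 1563 against 252 to 299). The dendritic cell markers, also of cells that make class II, summed to 24.9 to 29.3 rpm against 11.3 to 14.2, with 4 of 4 measured above 0 in log2 fold change and 2 at an unadjusted p under 0.05. The part of macrophages, fibroblasts and dendritic cells in the class II values was not tested. Endothelial markers were higher as well, 5 of 5 at an unadjusted p under 0.05. Of 9 luminal epithelial markers, 6 were below 0 (median -0.49), with 4 lower and 1 higher at an unadjusted p under 0.05. The luminal markers summed to 2860 to 3116 rpm against 2605 to 3383 in WT-TRAMP. The part of cell composition in the class I values was not tested.

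In the other comparisons the interferon-stimulated genes were also mostly below 0: 33 of 34 in KO-TRAMP at 10 weeks (median -0.46, 4 at an unadjusted p under 0.05, beside 2.93% of all genes), 33 of 34 in A537T-TRAMP at 10 weeks (-1.09, 8, beside 2.82%) and 27 of 34 in A537T-TRAMP at 30 weeks (-0.24, 6, beside 3.23%). The comparisons of both lines at an age share their WT-TRAMP mice. Named examples were Rsad2 (-0.95) and Cxcl10 (-1.10), a T cell attractant, in KO-TRAMP at 10 weeks, Isg15 (-1.30) and Ifit2 (-0.93) in A537T-TRAMP at 10 weeks, and Irf7 (-0.54) and Ifit3 (-0.92) in A537T-TRAMP at 30 weeks. The 4 interferon ligand genes of the list were at or near 0, summing to at most 0.427 rpm in any library. Among 7 endoplasmic reticulum genes of loading and trimming, those at an unadjusted p under 0.05 were Pdia3 (0.32) and Calr (0.39), chaperones of the loading complex, in KO-TRAMP at 10 weeks, Calr (0.49) and the peptide-trimming Erap1 (0.38) in A537T-TRAMP at 30 weeks, and, downwards, Sec61a1 (-0.49) of the translocon in KO-TRAMP at 30 weeks, where 6 of the 7 were below 0. None of the 7 was called in any of the 4 comparisons.

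**Figure D4:**
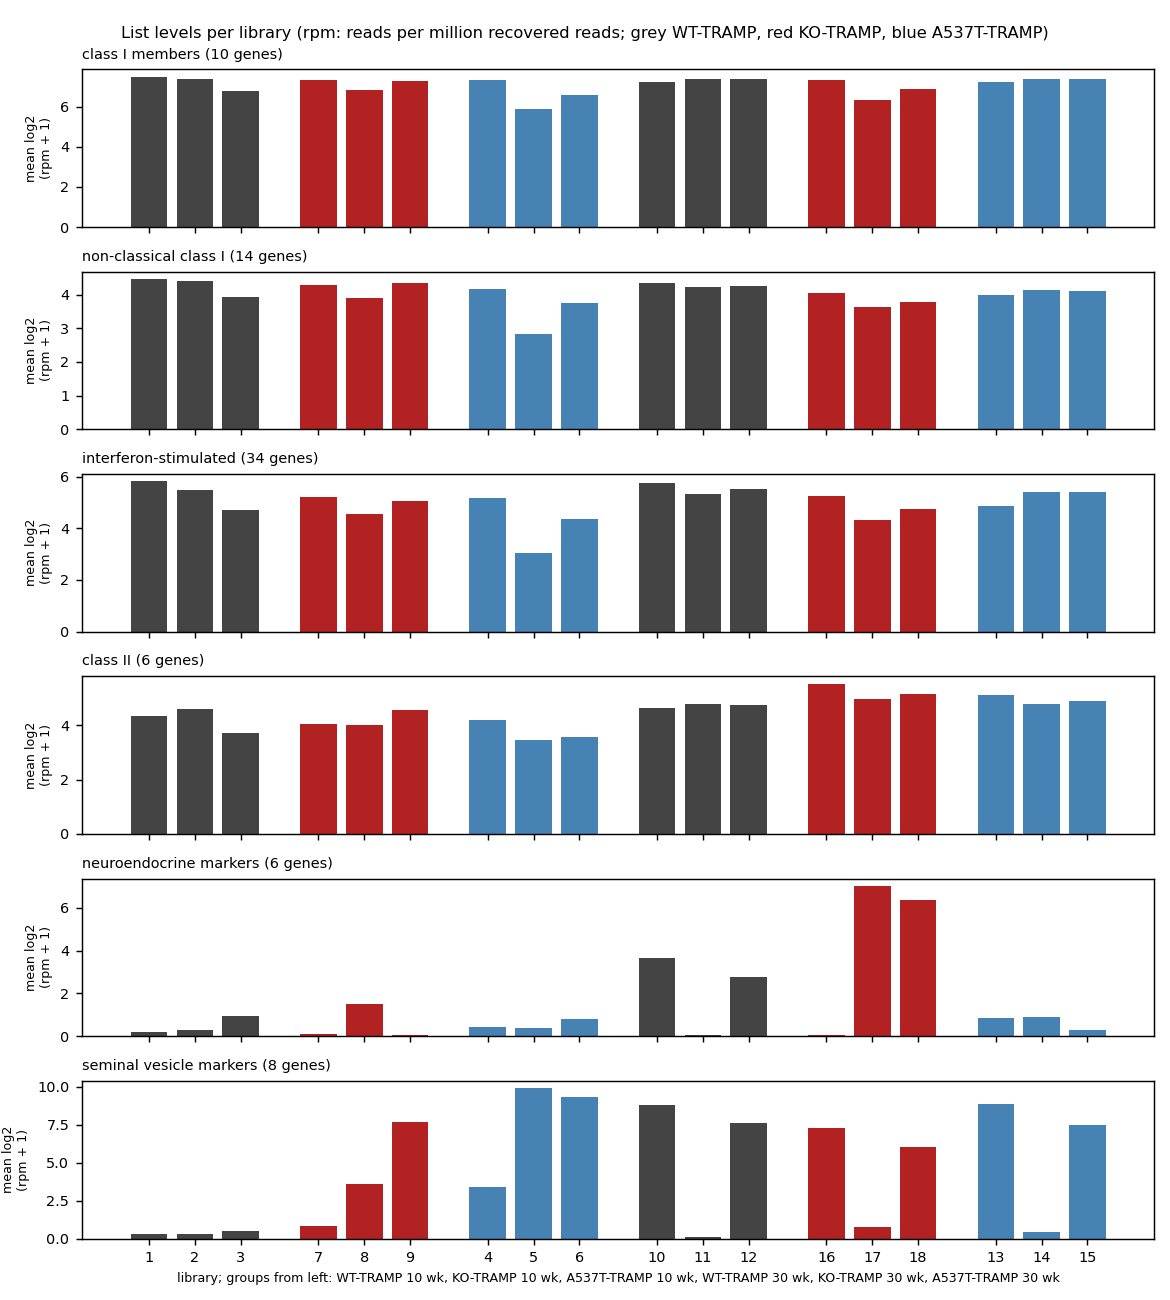
Level of the marker and pathway lists in each of the 18 libraries, with bars starting at 0 (grey WT-TRAMP, red KO-TRAMP, blue A537T-TRAMP). Each bar is the mean over the genes of a list of log2 rpm, with a pseudocount added. Summed in rpm instead, neuroendocrine markers came to 1300 and 808 in libraries 17 and 18, and seminal vesicle genes were highest in library 5.

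The genes whose pattern across libraries was most like the mean of the 10 were sought among 9586 genes by Pearson's r in each table (6 libraries each, with WT-TRAMP libraries shared between tables), averaged over the 4 tables. The closest were H2-T22 (mean r 0.955), a non-classical class I heavy chain, Gipc2 (0.923), Mlkl (0.912), the executioner of necroptosis, Asb13 (0.906) and Dhrs7 (0.906). Of the 50 closest, 2 belonged to the interferon-stimulated list, which supplied 29 of the 9586 genes compared.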

How the data were processed

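RNA from ventral and lateral prostate was sequenced by the authors (TruSeq, NovaSeq). The submitters' processing notes name Trim Galore 0.4.1, cutadapt 1.18, STAR 2.7.3a, Salmon and DESeq2 1.26, with GRCm38.p6. The authors deposited normalised counts, a read-depth-scaled signal per gene, for 6 libraries in each of 4 tables, each value being a library's reads divided by 1 size factor. Reads were recovered from the steps of these values (100% whole, tolerance 0.01), giving 9380174 to 14830104 reads per library. The deposited tables of shrunken fold changes and s-values were not used. Libraries carry the header numbers, and their groups come from the labels. The WT-TRAMP libraries were the 3 columns common to both tables of an age.

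The test was limma 3.58.1 (R 4.3.3, moderated with trend) on log2(normalised count + 1) for genes with a mean of at least 10, with Benjamini-Hochberg adjustment over all genes and a threshold of 0.05. The pseudocount understates the change of low genes. Each line was compared with WT-TRAMP within a table, and the difference between ages by an interaction term over 12 libraries. Exact permutation tests over 3 against 3 were two-sided. Alternatives were edgeR 4.0.16 and DESeq2 1.42.0 on recovered reads, TMM factors, scaling to reads outside the seminal vesicle list, pseudocounts of 0.5 and 5, no minimum, a minimum mean of 100, and leaving out each library. The code was tested on simulated data. Coordinates came from GENCODE vM21, sequences from RefSeq. Genes beyond the 10 were named as the 4 of each list with the smallest p in a comparison, and the text gives those with an unadjusted p under 0.05. The 10 genes and the lists were chosen with earlier results of these data known. Replicates were separate mice.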

Additional observations from a re-analysis of the deposited data

How the results depend on the processing

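No paired analysis was possible because the table headers give no replicate number or litter that would tie a line's library to a control. No setting other than leaving out a library brought any of the 10 genes past the threshold, and 447 of 450 gene results under those other settings kept their direction. The 3 exceptions were A537T-TRAMP at 30 weeks without libraries 10 and 13, a setting chosen after seeing the data, with H2-K1 at -0.030, H2-D1 at -0.044 and B2m at -0.0072. Over all genes, the counts called moved. KO-TRAMP at 10 weeks had 0 with a minimum mean of 100, 0 by edgeR and 83 by DESeq2. A537T-TRAMP at 10 weeks had 0 with a pseudocount of 0.5, 0 with a minimum mean of 100, 0 by edgeR and 148 by DESeq2. KO-TRAMP at 30 weeks had 15 by edgeR and 805 by DESeq2. A537T-TRAMP at 30 weeks had 166 by DESeq2 and 5 without libraries 10 and 13. The KO-TRAMP interaction had 1 with a pseudocount of 5 and 1 with no minimum. The cause was not tested.

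Leaving out each library in turn gave 1 to 9, 0 to 38, 0 to 3011 and 0 to 136 called genes, in the order KO-TRAMP then A537T-TRAMP at 10 and then 30 weeks, and 0 to 1930 and 0 to 19 for the KO-TRAMP and A537T-TRAMP interactions. Of the 10 genes, 0 to 5 were called in KO-TRAMP at 30 weeks and 0 to 2 in its interaction, the upper values without library 16. The all-gene maxima came without libraries 3, 4, 16, 11, 16 and 11 in that order. Log2 values that crossed 0 were as follows. In KO-TRAMP at 10 weeks H2-K1 ran from -0.42 to 0.075, B2m from -0.20 to 0.19, Tapbp from -0.051 to 0.10, Psmb9 from -0.37 to 0.060 and Nlrc5 from -0.81 to 0.046. In A537T-TRAMP at 10 weeks B2m ran from -0.13 to 0.25 and Tapbp from -0.0012 to 0.13, and at 30 weeks Tap2 from -0.14 to 0.14. In the KO-TRAMP interaction H2-K1 ran from -0.55 to 0.086, H2-D1 from -0.46 to 0.053, Tap1 from -0.53 to 0.074, Tap2 from -0.41 to 0.11 and Psmb8 from -0.22 to 0.23, and in that of A537T-TRAMP B2m from -0.11 to 0.27 and Tapbp from -0.027 to 0.39. Ratios ran from -0.21 to 0.18 for Psmb8 to Psmb5 in A537T-TRAMP at 30 weeks, from -0.35 to 0.038 for Psmb9 to Psmb6 in KO-TRAMP at 10 weeks, and for Psmb10 to Psmb7 from -0.056 to 0.15 and from -0.20 to 0.094 in A537T-TRAMP at 10 and 30 weeks. With 3 mice per group, no exact test of a single gene can go below 0.1.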
